A study of Sus scrofa with 9 samples.

Results

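The circRNAs described here are those whose host gene carries the name of a channel, transporter, pump or transmembrane protein. They were selected by the host gene symbol alone, with the prefixes SLC, SLCO, ATP followed by a digit, KCN, CACN, SCN, ABCA to ABCG, TRPC, TRPM, TRPV, ANO, CLCN, ITPR, RYR, TMEM, TMC and XKR. The rule took 143 of the 3071 circRNAs in the table (4.66%), and they came from 89 of 1727 host genes (5.15%). None of them was among the 46 entries with the prefix ciRNA. Some names fit the rule although the protein is no channel or carrier, such as ATP23, a mitochondrial protease, TRPC4AP and ITPRID1, which interact with channels or receptors, and ATP6AP2, an accessory protein of the proton pump. A further 5 circRNAs whose hosts are given as Ensembl identifiers belong to 3 genes that would fit by symbol, and they were not counted as members.

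Porcine MII oocytes, PN embryos and sperm were sequenced as 3 libraries each, all of them labelled as untreated. MII oocytes, which are arrested at metaphase of the second meiotic division, came from ovaries of Long White gilts older than 8 months, were matured in vitro and were stripped of cumulus cells. PN embryos, 1-cell embryos with separate maternal and paternal pronuclei, were collected 18 h after IVF began, and the semen used for IVF came from Landrace boars. The sperm that was sequenced was from Large White boars of 2 to 3 years, so that the sperm libraries and the paternal genomes of the embryos came from different animals and breeds. RNA was prepared from 10000 MII oocytes and 10000 PN embryos, and no source used here says whether the 3 libraries of a group came from separate collections, so that p-values measure only the spread between these libraries.

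A circRNA is formed by back-splicing, in which a downstream splice donor is ligated to an upstream acceptor of the same transcript, and only reads across this junction count it. Circles have no free ends and are degraded slowly by exonucleases. Many of the host genes here encode proteins that move ions and solutes. SLC carriers exchange or co-transport small molecules, ABC transporters and P-type pumps use ATP, P4 flippases move phospholipids across the bilayer, and channels pass ions along their gradient. In the egg the inositol trisphosphate receptor releases calcium from the endoplasmic reticulum at fertilization, and sperm depend on bicarbonate, proton, sodium and calcium transport for motility. The abundance of a circle does not give the abundance of the protein. Neither sequences nor junction positions of the circles are given here.

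Sperm replicates 1 and 3 held the same count for each of the 3071 circRNAs, of which 562 were above 0, and they entered as 1 sample, so that circRNA values rest on 3, 3 and 2 libraries. Circle counts summed to between 22809 and 26200 in the oocyte and embryo libraries, and to 155731 and 167851 in sperm. The identity of the groups was checked on loci named after marker genes. The PRM1 locus (protamine, which packs sperm DNA) had between 113386 and 134556 counts in sperm and between 0 and 87 in the other libraries, while the OOEP locus (an oocyte factor) had between 492 and 2013 counts in oocytes and embryos and 0 in sperm. Not all listed markers followed the labels. Of the 8 sperm genes with a locus, PRM1, ODF2, DNAH1 and DNAH17 were higher in every sperm library than in any other, SPAG16 overlapped, SPATA16 and CCDC39 were lower in every sperm library than in any oocyte or embryo library, and AKAP3 was counted in 2 oocyte libraries alone. KIT, the only other oocyte marker with a locus, had 1370 counts in sperm replicate 1 and 188 in MII oocyte replicate 3. Summed over the lists, the sperm genes had 123494 to 144910 counts in sperm and 3936 to 5701 elsewhere, and the oocyte genes 0 to 1370 in sperm and 492 to 2013 elsewhere. Markers of other cells were also found in sperm libraries, where the 4 cumulus and granulosa genes with a locus summed to between 787 and 12902 counts and the 2 leukocyte genes to between 0 and 1362. In MII oocytes these sums were 891 to 2186 and 701 to 990, and in PN embryos 1186 to 1786 and 584 to 749. The 4 epithelial markers had no named locus, and the part of other cells in the values below was not tested.

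The 143 circRNAs took a small share of the circle counts in every library. Their counts were 635, 823 and 719 in MII oocytes, 394, 639 and 583 in PN embryos, and 6562 and 5685 in sperm. As a share of all circle counts this was 2.62% (Wilson 95% interval 2.43 to 2.83), 3.43% (3.21 to 3.67) and 3.15% (2.93 to 3.39) in MII oocytes, 1.71% (1.55 to 1.88), 2.44% (2.26 to 2.63) and 2.38% (2.20 to 2.58) in PN embryos, and 4.21% (4.12 to 4.31) and 3.39% (3.30 to 3.47) in sperm. The means were 3.07% ± 0.41 (SD, n = 3), 2.18% ± 0.405 (SD, n = 3) and 3.80% ± 0.585 (SD, n = 2). Every oocyte library lay above every embryo library, and sperm replicate 2 lay below the second oocyte library. The intervals cover counting error only, since PCR reads without molecular identifiers are not independent molecules. In these bulk samples fewer cells of a type and less RNA per cell cannot be told apart.

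**Figure D1:**
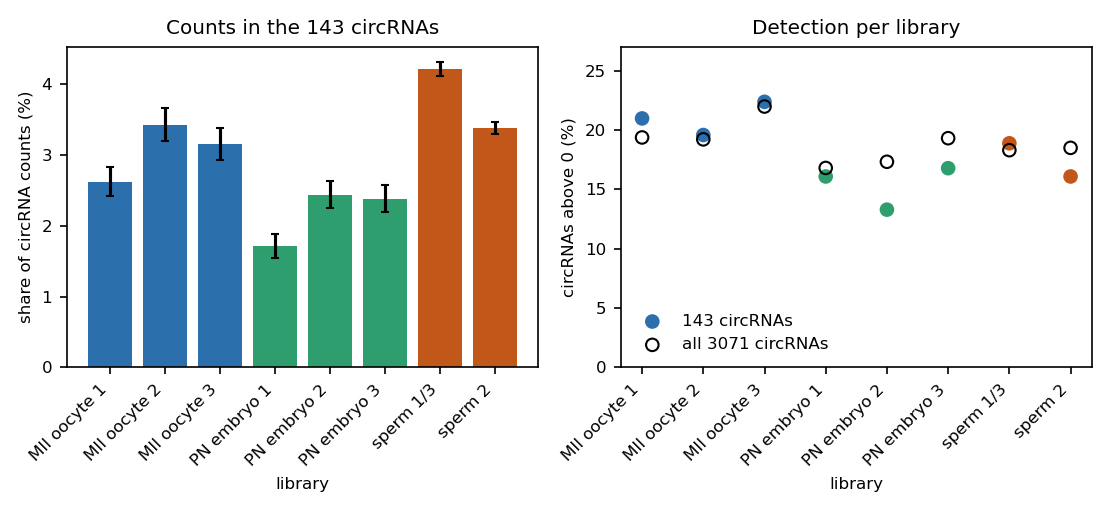
Left, counts of the 143 circRNAs as a share of all circRNA counts of the library in %, with Wilson 95% intervals. Right, the percentage of the 143 circRNAs (filled) and of all 3071 circRNAs (open) above 0 in each library. Oocytes are blue, embryos green and sperm orange, and sperm 1/3 is the column that 2 sperm samples share. Shares range from 1.71% to 4.21%, and between 13.3% and 22.4% of the members were above 0 in a library.

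Few of the circles were seen in any one library. Between 19 (PN embryo replicate 2) and 32 (MII oocyte replicate 3) of the 143 were above 0, which is 13.3% to 22.4%, against 16.8% to 22.0% of all circRNAs. Over the libraries of a group, 71 were detected in MII oocytes (49.7%, against 48.1% of all circRNAs), 58 in PN embryos (40.6%, against 42.6%) and 45 in sperm (31.5%, against 32.7%). Detection in at least 2 libraries of a group was reached by 15 circles in MII oocytes, 7 in PN embryos and 5 in sperm, which is 10.5%, 4.90% and 3.50%, against 10.1%, 8.43% and 4.10% of all circRNAs. By group, 51 circles were seen in MII oocytes alone, 33 in PN embryos alone, 33 in sperm alone, 14 in both oocytes and embryos, 6 in embryos and sperm, 1 in oocytes and sperm and 5 in all 3 groups. These shares lay near those of the whole table, in which 30.7% of circRNAs were seen in MII oocytes alone, 23.8% in PN embryos alone and 24.8% in sperm alone.

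Most circles stood on a single library. Of the 143 circles, 106 (74.1%) were above 0 in 1 library, against 71.4% of all circRNAs, 23 in 2 libraries and 14 in at least 3. This was also seen at high counts. Of the circles with at least 50 counts in a library, 7 of 13 in MII oocytes, 9 of 13 in PN embryos and 23 of 27 in sperm had 0 counts in every other library of that group (53.8%, 69.2% and 85.2%). Over all circRNAs the shares were close to these, at 58.5%, 62.5% and 83.2%. The most abundant circle of a library made up between 10.4% and 22.6% of the members' counts in it. SLC45A4 circRNA2746 had 982 counts in sperm replicate 2 and 0 in the other sperm column, and TMC1 circRNA2453 had 748 in the shared sperm column and 0 in replicate 2. A zero therefore limits a circle only to the floor of 3 counts in that library, which is 0.0114% to 0.0132% of the circle counts in oocytes and embryos and 0.00179% to 0.00193% in sperm.

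The host genes differed in how many circles they gave. A single circle came from 61 hosts, and 28 hosts gave the other 82. TRPM3 gave 8 circles, SLC41A2 6, ATP8A2 5, and RYR2, RYR3, SLC37A3 and SLC9B1 4 each. ANO4, SLC4A4, SLC5A10, TMEM232 and TRPM7 gave 3 each. The mean was 1.61 circles per host, against 1.78 over all hosts. The annotated RefSeq gene (Sscrofa11.1) had a median length of 99.4 kb for the 57 hosts with 1 circle and a known length, 203 kb for the 16 with 2 and 244 kb for the 11 with at least 3. Over the 84 member hosts with a length the median was 114 kb, against 102 kb over 1514 of all hosts.

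**Figure D2:**
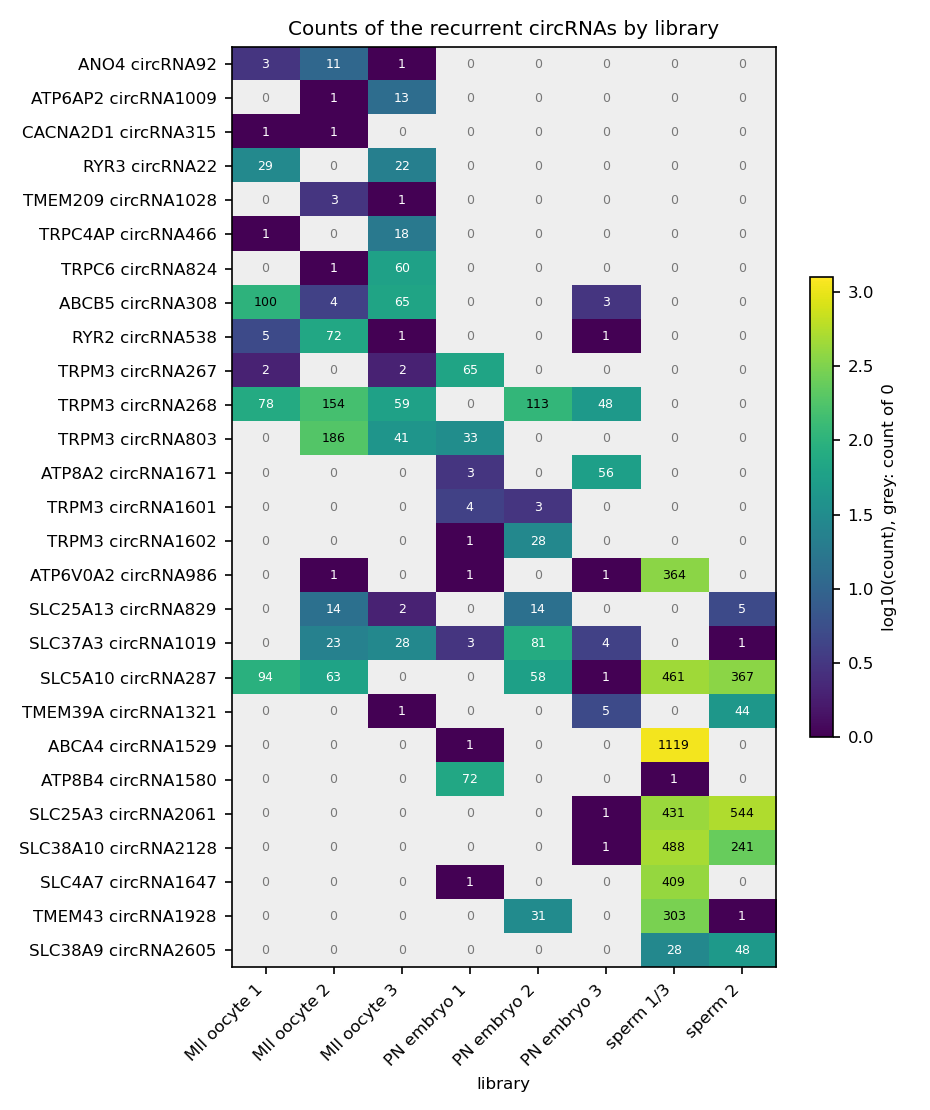
Counts of the 27 circRNAs that were above 0 in all 3 groups, in both embryos and sperm but no oocyte library, or in at least 2 libraries of 1 group. Each row is 1 circRNA with its host gene, each column 1 library, the number is the count, and the colour is log10 of the count with grey for 0. Only SLC37A3 circRNA1019 was above 0 in all 3 embryo libraries, and the rows of TRPM3 are empty in both sperm columns.

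The TRP family held the circle seen most evenly in oocytes. TRP proteins are cation channels, and TRPM3 is opened by heat and neurosteroids. TRPM3 (chromosome 1, 223833263 to 224682424, Sscrofa11.1) gave 8 circles. TRPM3 circRNA268 had 78, 154 and 59 counts in the MII oocytes, 0, 113 and 48 in the PN embryos, and 0 in both sperm columns. It was above 0 in 5 of the 6 oocyte and embryo libraries, and its lowest oocyte value was above both sperm values. Relative to the valid reads of the library it was at least 31.6-fold lower in sperm than in MII oocytes, against a floor of 3 counts per sperm library (two-sided exact permutation test, p = 0.1, the smallest that 3 against 2 libraries allow). TRPM3 circRNA803 had 0, 186 and 41 counts in MII oocytes and 33, 0 and 0 in PN embryos. TRPM3 circRNA267 had 2, 0 and 2 counts in MII oocytes and 65, 0 and 0 in PN embryos. Thus the abundant TRPM3 circle differed between embryo libraries, with circRNA267 and circRNA803 counted in the embryo library in which circRNA268 was at 0. The other 5 TRPM3 circles (circRNA804, circRNA1216, circRNA1600, circRNA1601 and circRNA1602) had highest counts between 4 and 44, and none of the 8 was seen in sperm.

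The other TRP hosts gave weaker circles. TRPC6 circRNA824 had 0, 1 and 60 counts in MII oocytes, and TRPC4AP circRNA466 had 1, 0 and 18. The calcium-permeable channel TRPC4 gave circRNA425 with 39 and circRNA426 with 2 counts, both in MII oocyte replicate 1. TRPM7, a channel fused to a kinase that carries magnesium, zinc and calcium, gave 3 circles of 52 (circRNA1200), 20 (circRNA225) and 2 counts (circRNA1579), each in 1 library, and TRPM6 circRNA1872 had 1 count in an embryo. Summed over the 16 TRP-named circles the counts were 142, 385 and 233 in MII oocytes, 110, 155 and 48 in PN embryos and 0 in both sperm columns. The sums of oocytes and embryos overlapped in raw counts, and 11 of the 16 circles were seen in oocytes and 9 in embryos.

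Circles of the calcium release channels were likewise listed at 0 in sperm. RYR2, RYR3 and ITPR1 release calcium from internal stores, ITPR1 in response to inositol trisphosphate. Their 10 circles summed to 60, 72 and 99 counts in the MII oocytes, 21, 0 and 9 in the PN embryos and 0 in both sperm columns, so that every oocyte library was above every embryo library. RYR2 circRNA538 had 5, 72 and 1 counts in MII oocytes and 0, 0 and 1 in PN embryos. RYR3 circRNA22 had 29, 0 and 22 counts in MII oocytes and 0 elsewhere. RYR3 circRNA1050 was higher than either in 1 library, with 73 counts in MII oocyte replicate 3 alone. RYR2 circRNA536 had 24 counts in MII oocyte replicate 1, circRNA537 had 2 there and 4 in PN embryo replicate 3, and circRNA1727 had 9 in PN embryo replicate 1. The 2 remaining RYR3 circles, circRNA1477 and circRNA2031, had 12 and 3 counts in 1 embryo library each, and the ITPR1 circles circRNA1294 and circRNA2177 had 3 and 1 counts. That both of these families were at 0 in sperm was picked out after the values were seen, and of all circRNAs 32.7% were above 0 there.

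SLC carriers made up the largest group, with 45 circles of 26 hosts besides the mitochondrial carriers. Their counts summed to 226, 233 and 225 in MII oocytes, 32, 369 and 222 in PN embryos and 2005 and 3836 in sperm. As shares of the circle counts, oocyte libraries were within 0.933% to 0.986%, while embryo libraries spread from 0.139% to 1.41%. SLC5A10, a sodium-coupled sugar carrier (chromosome 12, 60281883 to 60332141), gave the one member seen in both sperm columns and in more than 1 oocyte library. SLC5A10 circRNA287 had 94, 63 and 0 counts in the MII oocytes, 0, 58 and 1 in the PN embryos and 461 and 367 in sperm. Sperm values did not overlap with the others. Relative to the valid reads of each library the sperm mean was 8.11 times that of MII oocytes and 21.2 times that of PN embryos (two-sided exact permutation test, p = 0.1 for both, the smallest possible). These ratios rested on single libraries, being 13.6 without MII oocyte replicate 1 and 828 without PN embryo replicate 2, which leaves 1 count in the embryos. The direction turned with the scaling. After TMM scaling the log2 fold change of sperm against MII oocytes was -2.08 ± 2.63 (SE, edgeR, adjusted p = 0.502), and with scaling to valid reads it was 3.02. The other SLC5A10 circles, circRNA2481 and circRNA2858, had 11 and 20 counts in 1 sperm column each.

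A pair of amino acid carriers gave circles in both sperm columns. SLC38A10 circRNA2128 (host on chromosome 12, 1481245 to 1514499) had 0 counts in all MII oocyte libraries, 0, 0 and 1 in PN embryos and 488 and 241 in sperm. Relative to the valid reads of each library it was at least 125-fold higher in sperm than in MII oocytes (exact permutation test, two-sided p = 0.1, the smallest possible). Without the shared sperm column it was at least 81.3-fold higher. SLC38A9 is a lysosomal carrier that reports arginine to the mTORC1 kinase complex. SLC38A9 circRNA2605 (chromosome 16, 34639575 to 34858827) had 28 and 48 counts in sperm and 0 in the 6 oocyte and embryo libraries. Relative to valid reads this was at least 12.9-fold above MII oocytes and 12.7-fold above PN embryos (exact permutation test, two-sided p = 0.1 for both). All circle counts summed to 155731 and 167851 in sperm and to 22809 to 26200 in oocyte and embryo libraries. Relative to circle counts the bounds of both SLC38 circles are therefore several times smaller. Besides SLC38A10 circRNA2128, SLC38A9 circRNA2605 and SLC5A10 circRNA287, the only SLC circle above 0 in both sperm columns was that of the mitochondrial carrier SLC25A3.

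SLC37A3 gave the one circle found in all 3 embryo libraries. SLC37A3 circRNA1019 (host on chromosome 18, 9383770 to 9442787) had 0, 23 and 28 counts in the MII oocytes, 3, 81 and 4 in the PN embryos and 0 and 1 in sperm. Every embryo value was above both sperm values, whereas oocytes and embryos overlapped and their log2 fold change of 0.45 ± 2.88 (SE, edgeR, adjusted p = 0.996) turned to -2.28 without PN embryo replicate 2. Its other circles had 3 (circRNA1020), 2 (circRNA1444) and 44 counts (circRNA2676), each in 1 library. SLC9B1, a sodium-proton exchanger of the germ line and other tissues, gave 4 circles. Of these circRNA1283 had 0 and 576 counts in sperm with 1 in an oocyte, circRNA2894 had 0 and 314, circRNA2516 had 26 and 0, and circRNA1284 was seen in 1 oocyte (10 counts) and 1 embryo library (26 counts). No SLC9B1 circle was above 0 in both sperm columns.

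Bicarbonate and metal carriers gave high counts in single libraries. The sodium bicarbonate cotransporter SLC4A4 gave circRNA341 with 85 counts in MII oocyte replicate 1, circRNA1274 with 32 in MII oocyte replicate 3 and circRNA2508 with 538 in the shared sperm column. SLC4A7 circRNA1647, of the same transporter family, had 1 count in PN embryo replicate 1 and 409 in the shared sperm column. The zinc and manganese importer SLC39A8 gave circRNA1917 with 82 counts in PN embryo replicate 2 and circRNA2164 with 107 in PN embryo replicate 3. The circles of SLC4A4 and SLC39A8 were at 0 in all other libraries. SLC39A12 circRNA1959 also had 82 counts in PN embryo replicate 2, and SLC39A10 circRNA1393 had 64 in MII oocyte replicate 3 with 1 in an embryo. SLC41A2, a magnesium carrier, gave 6 circles of which circRNA88, circRNA89 and circRNA90 had 18, 19 and 10 counts in MII oocyte replicate 1, circRNA1101 and circRNA1102 had 2 and 25 in MII oocyte replicate 3, and circRNA2060 had 79 in PN embryo replicate 3. Thus none of the 6 was found in a second library.

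Most of the remaining SLC circles were also counted in 1 library. SLC45A4 circRNA2746 with 982 counts and SLC49A4 circRNA2921 with 656 were the most abundant members of sperm replicate 2, which also held circles of the organic cation carrier SLC22A3 (circRNA2810, 289), the intestinal glucose carrier SLC5A1 (circRNA2998, 183) and SLC39A11 (circRNA2841, 159). In MII oocyte replicate 2, SLC17A2 circRNA598 had 69 counts, SLC35F2 circRNA825 had 43 and the lactate carrier SLC16A1 (circRNA691) had 29. SLC35A1 circRNA1195, of the CMP-sialic acid carrier, had 38 counts in MII oocyte replicate 3 and 4 in PN embryo replicate 3. The second SLC35F2 circle (circRNA1895), SLC9A7 (circRNA1010 and circRNA2259) and SLC2A13 (circRNA1100 and circRNA1509) had between 2 and 25 counts in 1 library each. SLC17A1, SLC23A2, SLC46A2 and SLC9C2 had between 1 and 37 counts in 1 library each.

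Among the mitochondrial carriers, SLC25A3 gave a circle with similar counts in both sperm columns. SLC25A3, the phosphate carrier of the inner mitochondrial membrane (chromosome 5, 85284405 to 85292336), has an annotated gene of only 7.93 kb. SLC25A3 circRNA2061 had 0 counts in all MII oocyte libraries, 0, 0 and 1 in PN embryos and 431 and 544 in sperm. Relative to valid reads it was at least 166-fold higher in sperm than in MII oocytes (exact permutation test, two-sided p = 0.1, the smallest possible). Relative to circle counts, which summed higher in sperm, this bound is several times smaller. The second SLC25A3 circle, circRNA2742, was in sperm replicate 2 alone, with 302 counts. SLC25A13, the aspartate-glutamate carrier citrin, gave circRNA829 in all 3 groups at low counts, with 0, 14 and 2 in MII oocytes, 0, 14 and 0 in PN embryos and 0 and 5 in sperm. SLC25A13 circRNA2492 had 32 counts in the shared sperm column. SLC25A36 circRNA878 had 2 counts in an oocyte library. Summed over the 5 circles the counts were 0, 16 and 2, then 0, 14 and 1, and 463 and 851 in sperm, so that sperm did not overlap with either group.

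Among ABC transporters, ABCB5 gave 1 of the 2 members whose counts did not overlap between oocytes and embryos. ABCB5 (chromosome 9, 89620783 to 89751876) is related to the multidrug efflux pumps. ABCB5 circRNA308 had 100, 4 and 65 counts in the MII oocytes, 0, 0 and 3 in the PN embryos and 0 in both sperm columns. The lowest oocyte value was 1 count above the highest embryo value (two-sided exact permutation test, p = 0.1, the smallest that 3 against 3 allow). ABCB5 circRNA2493 was seen in the shared sperm column alone, with 27 counts. ABCA4, which clears retinoids in photoreceptors, gave circRNA1529 with 1 count in PN embryo replicate 1 and 1119 in the shared sperm column, the highest count of any member in 1 library, and 0 in sperm replicate 2. Further single-library circles were those of ABCC9 (circRNA2336, 160 counts) and ABCA1 (circRNA2459, 49) in the shared sperm column, and ABCC2 (circRNA1733, 64) and ABCC1 (circRNA1538, 33) in PN embryo replicate 1. ABCC1 circRNA701, ABCA5 and ABCG2 had 1 or 2 counts.

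Among pumps and flippases 3 circles were above 0 in more than 1 library of 1 group. ATP8A2, a phosphatidylserine flippase, gave circRNA1671 with 3, 0 and 56 counts in PN embryos, and its other 4 circles (circRNA417, circRNA1672, circRNA2560 and circRNA2561) had between 1 and 16 counts. ATP6V0A2, a membrane subunit of the V-type proton pump, gave circRNA986 with 0, 1 and 0 counts in the MII oocytes, 1, 0 and 1 in the PN embryos and 364 and 0 in sperm, and circRNA525 with 22 counts in MII oocyte replicate 1. The accessory protein ATP6AP2 also gave a circle in 2 oocyte libraries (circRNA1009, with 0, 1 and 13 counts). ATP8B4 circRNA1580 had 72 counts in PN embryo replicate 1 and 1 in the shared sperm column, and circRNA1581 had 2 in the same embryo library. ATP9B circRNA237 had 4 counts in MII oocyte replicate 1 and 4 in PN embryo replicate 1, and circRNA2116 had 40 in PN embryo replicate 3. ATP11A circRNA2574 was in the shared sperm column with 274 counts, and the calcium pump of the endoplasmic reticulum ATP2A2 gave circRNA2639 there with 70. The other pumps and ATP23 had between 3 and 39 counts in 1 library.

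ANO4 gave the second circle that was lower in embryos without overlap. Anoctamins are calcium-activated ion channels and lipid scramblases. ANO4 circRNA92 (host on chromosome 5, 83052070 to 83489523) had 3, 11 and 1 counts in MII oocytes and 0 in all other libraries, at least 1.63-fold higher than in PN embryos at the floor (exact permutation test, two-sided p = 0.1). The margin to the embryos was 1 count in the lowest oocyte library, and without MII oocyte replicate 2 the oocyte mean was itself under the floor. ANO4 also gave circRNA661 with 1 count and circRNA1799 with 31 in PN embryo replicate 2. ANO10 circRNA2172 and circRNA2523 had 1 and 141 counts in 1 library each, and the scramblase ANO6 gave circRNA86 with 8 counts in MII oocyte replicate 1. TMC1, a channel subunit of hair cells, gave circRNA2453 with 748 counts in the shared sperm column. The 9 circles of voltage-gated channel genes had between 1 and 9 counts, except CACNA2D1 circRNA2494 with 623 in the shared sperm column. Of these, CACNA2D1 circRNA315 had 1 count in each of 2 oocyte libraries, and the L-type calcium channel CACNA1D gave circRNA873 and circRNA1924 with 2 and 9 counts.

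TMEM proteins share only a membrane-spanning part and have no common function. TMEM43, a protein of the inner nuclear membrane (chromosome 13, 70397069 to 70417213), gave circRNA1928, which was at 0 in MII oocytes, at 0, 31 and 0 in PN embryos and at 303 and 1 in sperm. Relative to valid reads it was at least 52.3-fold higher in sperm than in MII oocytes (exact permutation test, two-sided p = 0.1). Nearly all counts were in the shared column, without which it was under the floor. As for the SLC38 circles, the bound is several times smaller relative to circle counts. The log2 fold change of TMEM43 circRNA1928 against PN embryos changed sign with the scaling. TMEM39A circRNA1321 was seen in all 3 groups with 0, 0 and 1 counts in the MII oocytes, 0, 0 and 5 in the PN embryos and 0 and 44 in sperm. TMEM232 gave circRNA192 with 19 counts in MII oocyte replicate 1, circRNA1180 with 2 in MII oocyte replicate 3 and 46 in PN embryo replicate 1, and circRNA2102 with 66 in PN embryo replicate 3. TMEM209 circRNA1028 had 0, 3 and 1 counts in MII oocytes. TMEM41B, a lipid scramblase of the endoplasmic reticulum, had 522 counts in sperm replicate 2 (circRNA2861), the highest count of the 19 circles in this group. TMEM62 circRNA1203 was the most abundant member of MII oocyte replicate 3, with 75 counts. The other TMEM circles had between 1 and 195 counts. The ITPRID2 circle circRNA1390 had 71 counts in PN embryo replicate 3 and 1 in an oocyte library, and ITPRID1 circRNA2024 had 9 in PN embryo replicate 2.

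**Figure D3:**
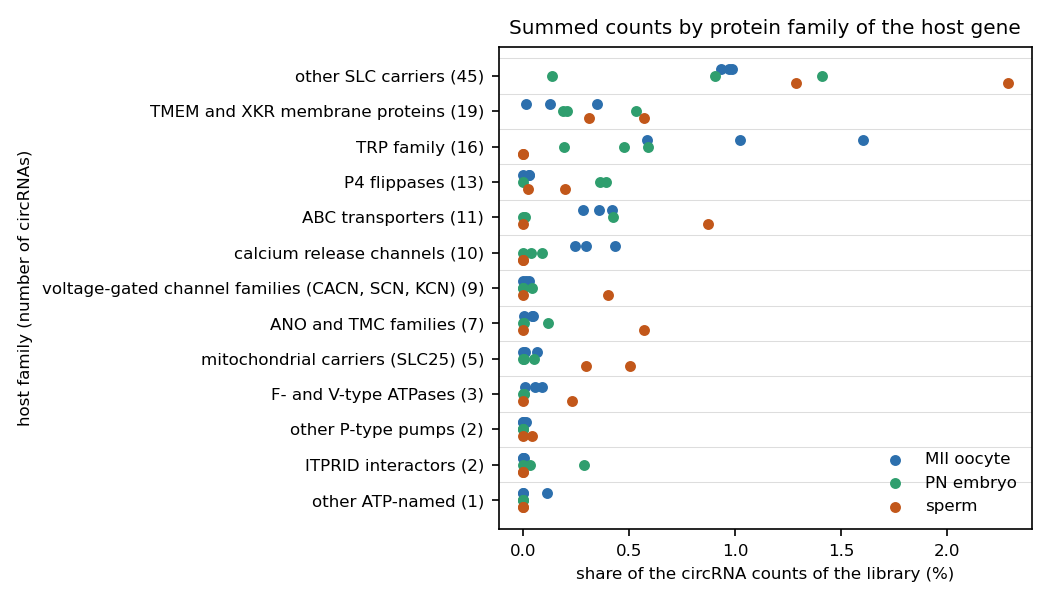
Counts of each host family as a share of the circRNA counts of the library in %, with 1 point per library (blue oocytes, green embryos, orange sperm) and the number of circRNAs of the family in brackets. The TRP family and the calcium release channels lie at 0 in both sperm columns, the SLC25 carriers are higher in sperm, and the embryo points of the other SLC carriers spread from 0.139% to 1.41%.

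Whether circle abundance differed between PN embryos and MII oocytes was tested over all circRNAs above 0 in at least 3 of the 6 libraries. With edgeR's quasi-likelihood test, 0 of 270 circRNAs passed (background 0%, with a call set at an adjusted p under 0.05 and a log2 fold change of 1 or more in size), and 0 of the 10 members tested. At an unadjusted p under 0.05 there were 16 circRNAs, 5.93% of those tested, and 1 member, ANO4 circRNA92 (adjusted p = 0.805). DESeq2 called 0 members and 1 circRNA in all (0.37%). By raw counts, of 110 members above 0 in either group, 0 were higher and 2 lower in every embryo library than in every oocyte library, ABCB5 circRNA308 and ANO4 circRNA92. The background was 0.649% higher and 0.693% lower over 2310 circRNAs.

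Sperm differed more from MII oocytes, but no member passed the test there either. Of 486 circRNAs above 0 in at least 2 libraries 10 passed (2.06%), all of them lower in sperm, and 0 of 22 members. The smallest adjusted p of a member was 0.0753, for TRPM3 circRNA268. At an unadjusted p under 0.05 there were 12 members, against 55.8% of all circRNAs tested, and 11 of the 12 were lower in sperm. The filter bears on this direction, since 15 members were above 0 in at least 2 oocyte libraries and 5 in both sperm columns. A circle that entered through oocytes alone and was at 0 in sperm could only come out lower. The same filter was used with DESeq2. DESeq2 called 12 of the 22 members (2 higher, 10 lower) beside 60.5% of all circRNAs (10.1% higher, 50.4% lower). The 2 higher ones were SLC25A3 circRNA2061 and SLC38A10 circRNA2128, which also passed in edgeR with scaling to valid reads (adjusted p = 0.0151 and 0.0162), where 18.7% of all circRNAs passed. The calls depended on single libraries. Without MII oocyte replicate 2, 7 of 16 members passed beside 39.6% of all circRNAs tested, all 7 lower in sperm. They were ABCB5 circRNA308, ANO4 circRNA92, RYR2 circRNA538, RYR3 circRNA22, TRPC4AP circRNA466 and TRPM3 circRNA267 and circRNA268. These 7 were at 0 in both sperm columns and passed the filter through oocytes alone, so that they could only come out lower. Without MII oocyte replicate 3, SLC25A3 circRNA2061, TRPM3 circRNA268 and CACNA2D1 circRNA315 passed, 3 of 13 beside 22.6%. Some of these calls rest on counts at or under the floor of 3. The oocyte counts in those fits were 1 and 1 for CACNA2D1 circRNA315, 3 and 1 for ANO4 circRNA92 and 2 and 2 for TRPM3 circRNA267. The directions are relative to the scaling, since the median log2 fold change over all circRNAs tested was -8.21 after TMM and -4.37 with valid reads. By raw counts, of 110 members 5 were higher (SLC5A10 circRNA287, SLC25A3 circRNA2061, SLC38A9 circRNA2605, SLC38A10 circRNA2128 and TMEM43 circRNA1928; background 5.13%) and 4 lower (TRPM3 circRNA268, ABCB5 circRNA308, RYR2 circRNA538 and ANO4 circRNA92; background 2.39%) in both sperm columns than in every oocyte library. Of the lower ones, the two-sided exact permutation p was 0.1 for TRPM3 circRNA268, 0.2 for ABCB5 circRNA308 and ANO4 circRNA92 and 0.5 for RYR2 circRNA538.

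Against PN embryos no member passed either. Of 453 circRNAs 17 passed (3.75%), 6 higher and 11 lower in sperm, and 0 of 16 members. The median log2 fold change after TMM was 0.43 over the 16 members and -3.35 over all circRNAs tested. Over the 22 members tested against MII oocytes it was -7.35, but the filter let in different circles there. Detection in at least 2 libraries was reached by 15 members in MII oocytes, 7 in PN embryos and 5 in sperm. The member medians therefore do not measure how the comparisons differ. There were 2 members at an unadjusted p under 0.05, against 39.5% of all circRNAs. DESeq2 called 7 members beside 54.3% of all circRNAs (6.18% higher, 48.1% lower), of which SLC25A3 circRNA2061 was higher and SLC37A3 circRNA1019, ATP8B4 circRNA1580, ATP8A2 circRNA1671 and TRPM3 circRNA268, circRNA1601 and circRNA1602 were lower in sperm. By raw counts 4 of 92 members were higher (background 5.45%) and 1 lower (background 2.63%) in both sperm columns than in every embryo library, the higher ones being SLC5A10 circRNA287, SLC25A3 circRNA2061, SLC38A9 circRNA2605 and SLC38A10 circRNA2128, and the lower one SLC37A3 circRNA1019 (exact permutation test, two-sided p = 0.5). Both comparisons with sperm use the same sperm libraries.

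The study screened for circles that were absent from oocytes but present in sperm and embryos. Among the members 6 had no count in any MII oocyte library but were counted in both other groups. They were ABCA4 circRNA1529, ATP8B4 circRNA1580, SLC4A7 circRNA1647, SLC25A3 circRNA2061, SLC38A10 circRNA2128 and TMEM43 circRNA1928. In 4 of the 6 the embryo signal was 1 count in 1 library, and the other two, ATP8B4 circRNA1580 with 72 counts and TMEM43 circRNA1928 with 31, were at 0 in the remaining embryo libraries. At a floor of 3 counts, a circle at 0 in oocytes and at 1 in an embryo library was not distinguishable between these groups at this depth. The share of members with this pattern was 4.20%, against 3.35% of all circRNAs.

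Transcripts that the lncRNA table lists under a host gene's name made it possible to look at locus counts for 64 of the 89 hosts. The assembled loci of these transcripts, 343 in all, were followed in the mRNA count table. A locus with such a name holds at least 1 transcript listed under that gene and need not be its messenger RNA, and none of the 361 transcripts concerned is an annotated lncRNA. The libraries were rRNA-depleted, so that locus counts need not be of linear RNA alone. The counts of the 343 loci summed to between 195541 and 211182 in oocyte and embryo libraries and to 82995, 73231 and 60686 in the 3 sperm libraries, whose mRNA columns differ from each other. As a share of all locus counts this was 0.194% to 0.224% in oocytes and embryos and 0.234% to 0.322% in sperm. The order turned with the denominator. As a share of the counts of loci paired with any gene symbol, the 343 loci took 2.20% to 2.41% in oocytes and embryos and 0.813% to 1.11% in sperm, where loci with a symbol held 28.8% to 29.1% of all locus counts, against 8.81% to 9.28%. All locus counts summed to between 91924597 and 103318452 in oocytes and embryos and between 25745522 and 26494348 in sperm.

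The TRPM3 loci were abundant in oocytes and embryos, and in sperm their counts differed between libraries while the main locus was nearly absent. The 8 loci summed to 22039, 24218 and 20861 counts in the MII oocytes, 23010, 22247 and 19955 in the PN embryos and 19, 3001 and 1194 in sperm. The main locus, MSTRG.9851, had 17008, 18228 and 16132 counts in the MII oocytes, 17532, 16832 and 15550 in the PN embryos and 10, 15 and 5 in sperm. Its log2 fold change in sperm was -8.64 ± 0.838 (SE, edgeR, adjusted p = 0.00354) against MII oocytes, where the median of all 19353 loci tested was -6.00 after TMM and -7.96 with scaling to valid reads. After TMM the median was -8.33 over the loci with a gene symbol and -8.98 over the host loci, so that the TRPM3 value lay near that of its own class. Thus TRPM3 circRNA268 and the main TRPM3 locus were both lower in sperm, while oocytes and embryos gave a log2 fold change of 0.08 ± 0.107 at the locus (adjusted p = 0.991), which was -0.01 with scaling to valid reads.

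In some other hosts the circle and the locus went together. RYR3 had 2260 to 3974 locus counts in oocytes and embryos, 0 to 3 in sperm and no circle in sperm. SLC25A3 and TMC1 had their highest circle and locus counts in sperm. For others the circle and the locus did not go together, and hosts of either kind were not counted. The ABCC2 locus had 32424, 42391 and 38332 counts in the MII oocytes, 31751, 36773 and 34519 in the PN embryos and 14, 18 and 6 in sperm, while its only circle had 64 counts in 1 embryo library. The loci of TMEM129 had between 46728 and 57016 counts in oocytes and embryos and between 6387 and 7547 in sperm, and its circle (circRNA2880) had 4 counts in sperm replicate 2. SLC49A4 loci had 3792, 6719 and 7062 counts in MII oocytes and 0, 1 and 0 in sperm, while SLC49A4 circRNA2921 had 656 counts in sperm replicate 2 and 0 in oocytes. SLC38A9 showed the same contrast, with 291, 533 and 180 locus counts in the MII oocytes, 467, 129 and 69 in the PN embryos and 0 in all sperm libraries, although its circle was seen in sperm alone. The loci of SLC5A10, SLC37A3 and SLC38A10 had 0 to 3 counts in all libraries except 1 each, at 351, 179 and 115.

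A few host loci rose in sperm. TMC1 locus MSTRG.9883 had 603, 511 and 998 counts in the MII oocytes, 1375, 1735 and 1293 in the PN embryos and 7268, 4356 and 4374 in sperm, a log2 fold change of 5.01 ± 0.634 against oocytes (adjusted p = 0.00525) and 3.85 ± 0.538 against embryos (adjusted p = 0.00613). SLC25A3 locus MSTRG.54931 had 162, 378 and 192 counts in the MII oocytes, 1198, 222 and 97 in the PN embryos and 5749, 1528 and 2448 in sperm, with log2 fold changes of 5.84 ± 0.948 (adjusted p = 0.00525) and 4.66 ± 1.29 (adjusted p = 0.0196). ABCB5 locus MSTRG.72253 had 0, 6 and 0 counts in the MII oocytes, 0, 113 and 113 in the PN embryos and 3270, 1616 and 2351 in sperm (log2 fold changes of 12.22 ± 2.34, adjusted p = 0.00614, and 6.98 ± 2.15, adjusted p = 0.0287). For ABCB5 the abundant circle, circRNA308, was in oocytes and the locus in sperm. The calls of SLC25A3 and ABCB5 against embryos were lost with scaling to valid reads (adjusted p = 0.103 and 0.0731). They were also lost without sperm replicate 1 (adjusted p = 0.0719 and 0.0756), without PN embryo replicate 2 (0.0770 and 0.0946) or without PN embryo replicate 3 (0.0546 and 0.0937), and that of ABCB5 without sperm replicate 2 or 3 (0.0641 and 0.0662). Without the filter on low counts 0 host loci were called higher in sperm in either comparison, so that the calls of all 3 loci were lost. With the replicate block 2 host loci were called higher against MII oocytes and 1 against PN embryos.

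**Figure D4:**
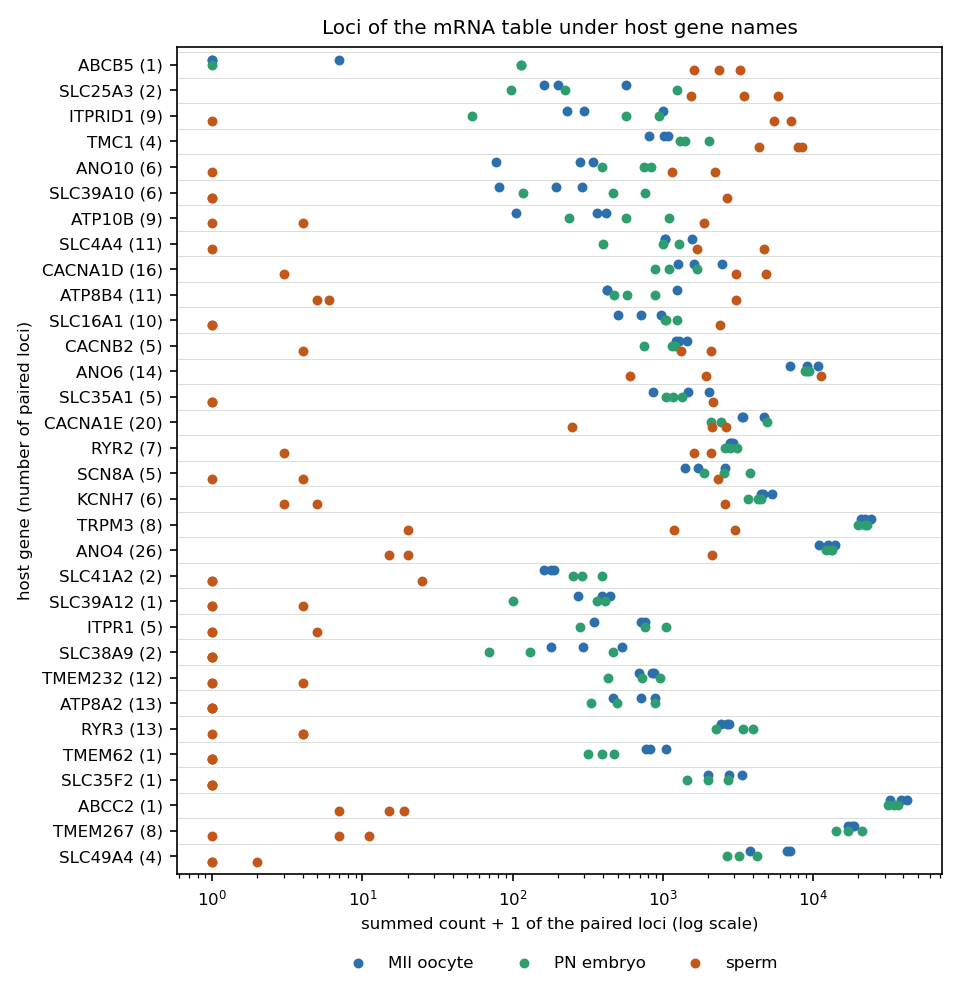
Summed counts plus 1, on a log axis, of the loci paired with each of the 32 host genes that had a called locus between sperm and MII oocytes, with 3 libraries per group (blue oocytes, green embryos, orange sperm) and the number of loci in brackets. ABCB5 and SLC25A3 stand at the top, highest in sperm relative to oocytes, and SLC49A4 at the bottom, and for many hosts the 3 sperm libraries spread widely, as for ITPRID1 with 5502, 0 and 7165 counts.

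Over all host loci, edgeR called 0 of 121 between PN embryos and MII oocytes (background 0.173%, and 0.158% of the loci with a gene symbol), with 9 at an unadjusted p under 0.05 (8.83% of all loci), and DESeq2 called 4 (2.93% of all loci). TMC1 MSTRG.9883 was among these 4, with a log2 fold change of 1.18 in both tools (adjusted p = 0.0375 in DESeq2 and 0.364 in edgeR). Between sperm and MII oocytes 70 of 84 loci passed, 3 higher and 67 lower, beside 61.8% of all loci (7.74% higher, 54.1% lower) and 69.2% of the loci with a gene symbol. Between sperm and PN embryos 68 of 79 passed, 3 higher and 65 lower, beside 60.4% of all loci (8.32% higher, 52% lower) and 68.1% of those with a symbol. These calls belonged to 32 host genes in each comparison. ANO4 had 10 called loci against oocytes, RYR3 5, and RYR2, TMEM232 and TRPM3 4 each, all lower in sperm. The calls required the filter on low counts, since with every locus in the fit 2 of 304 and 3 of 295 host loci passed, beside 0.788% and 1.16% of all loci. All of these host loci were lower in sperm.

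Whether a high count recurred within a group was also described for the host loci, with no test of their difference from the circles. Of the member loci with at least 50 counts in a library, 31.6% in MII oocytes and 31.6% in PN embryos had 0 counts in the other libraries of the group, and 75.0% in sperm, against 32.3%, 28.4% and 56.8% of all loci. For circles the values were 53.8%, 69.2% and 85.2%, against 58.5%, 62.5% and 83.2% of all circRNAs. Those of sperm were over 2 distinct columns rather than 3 libraries, so that the sperm values of circles and loci cannot be set against each other.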

How the data were processed

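Counts per circRNA (8 distinct columns of 9 libraries, 0 per-sample columns left unused) and counts per assembled locus in the mRNA table were used as the authors deposited them, whole numbers without normalization. The lncRNA values the authors deposited are coverage, of which only the gene names were used, to pair loci with host genes. The submitters' processing notes name cutadapt 1.9, HISAT2 2.0.4, TopHat2 2.0.4, StringTie 1.3.4d, edgeR and the build Sscrofa11.1, and the circRNA caller is not given in the sources used here. Libraries were rRNA-depleted, strand-specific and PCR-amplified, and overlapping loci or near-identical paralogs can share reads.

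The tests were those of edgeR 4.0.16 under R 4.3.3 (TMM, glmQLFit, glmQLFTest, Benjamini-Hochberg over all features tested), on the 2 groups compared, with the study's thresholds (adjusted p under 0.05, log2 fold change of 1 or more in size). CircRNAs entered if above 0 in at least 3 libraries, or 2 in fits with sperm. Loci were kept by filterByExpr. The SE given with edgeR is the absolute log2 fold change divided by the square root of the F statistic, not an SE from the fit. The fits were tested on simulated data, in which a feature varied much less between libraries of a group than the circles here. How the fits behave at the spread seen here was not tested. DESeq2 1.42.0, other scalings and filters, a replicate block and each replicate left out were alternatives, and those for the loci other than the filter, and the folds of single circRNAs with a replicate left out, were added after seeing the data. Ratios and bounds of single circRNAs are relative to the valid reads that the study lists for each library. Exact permutation tests, intervals (Wilson) and counts were computed with numpy 2.4.6, scipy 1.17.1 and pandas 2.3.3 under Python 3.11.15, and figures drawn with matplotlib 3.10.9. Folds against groups at 0 are bounds at a floor of 3 counts per library.

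Members, families and lists were chosen with earlier results of these data known. By rule the text names members above 0 in all 3 groups, in embryos and sperm but not oocytes, or in 2 libraries of a group, the 10 highest of each group, TMEM43 circRNA1928 and members of hosts with at least 2 circles, 100 circRNAs in all, some of them in ranges, and a few items are not reported here. Further members are named beside them.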

Additional observations from a re-analysis of the deposited data

How the results depend on the processing

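The counts of calls depended on the settings. For circRNAs between PN embryos and MII oocytes DESeq2 called 1. Between sperm and MII oocytes, where edgeR called 10, the counts were 19 with scaling to total circle counts, 91 with valid reads, 294 with DESeq2, 19 without a filter, 61 with circles above 0 in at least 3 libraries, 19 with all groups in 1 fit, 134 with the identical sperm columns as 2 samples, and 0 to 133 with a replicate left out. The members among them were 0, apart from 2 of 22 with valid reads (18.7% of all circRNAs tested), 12 of 22 with DESeq2 (60.5%), 3 of 7 with the 3-library filter (49.6%), 8 of 12 with the identical columns as 2 samples (57.3%) and 0 to 7 with a replicate left out (0% to 39.6%). Between sperm and PN embryos, where 17 were called, the counts were 7, 0, 246, 8, 54 and 109 for total scaling, valid reads, DESeq2, no filter, 3 libraries and identical columns, and 0 to 33 with a replicate left out, with 7 of 16, 1 of 6 and 2 of 10 members called by DESeq2, with 3 libraries and with identical columns (54.3%, 37.8% and 42.7% of all). For host loci between PN embryos and MII oocytes 1 of 300 was called without a filter (0.208% of all loci), 4 of 121 by DESeq2 (2.93%) and 0 to 1 with a replicate left out (0.0692% to 0.274%). Against sperm, 2 of 304 (MII oocytes) and 3 of 295 (PN embryos) were called without a filter (0.788% and 1.16% of all loci). With a replicate left out the counts were 60 to 69 of 87 to 134 tested (38.1% to 54.9% of all loci) and 52 to 71 of 81 to 120 (36.4% to 52.9%).

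Deviations of same-numbered oocyte and embryo libraries correlated at -0.046, 0.126 and -0.00033 for circRNAs and at 0.0066, 0.0052 and 0.0231 for loci. Those of differently numbered libraries ran from -0.127 to 0.129 for circRNAs and from -0.0149 to 0.0086 for loci. These values do not show whether replicate numbers mark a shared collection. Between sperm and either group the locus correlations of same-numbered libraries lay between -0.0013 and 0.0034, and for circRNAs the 2 distinct sperm columns give no such check. With the replicate block, 0 circRNAs were called in both comparisons with sperm. It called 1 of 121, 5 of 84 and 4 of 79 host loci between embryos and oocytes, sperm and oocytes, and sperm and embryos, beside 0.421%, 5.31% and 6.54% of all loci.

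Some log2 fold changes changed sign. SLC5A10 circRNA287 against MII oocytes was 0.25 with total scaling, 3.02 with valid reads and -2.32 to 0.52 with a replicate left out, and against PN embryos it was 1.21, but -0.077 with DESeq2, -0.72 with the 3-library filter and -0.87 to 6.59 with a replicate left out. TMEM43 circRNA1928 against PN embryos was -0.36, but 1.302 with total scaling, 3.88 with valid reads, 0.53 without a filter, 1.36 with identical columns and -7.91 to 8.76 with a replicate left out. SLC37A3 circRNA1019 (-2.28 to 1.12) and SLC25A13 circRNA829 (-1.06 to 0.062) turned between PN embryos and MII oocytes, and TMEM39A circRNA1321 (-2.19 to 0.79) and ATP6V0A2 circRNA986 (-5.86 to 5.91) between sperm and PN embryos, with a replicate left out. SLC25A3 MSTRG.54931 was -0.49 without PN embryo replicate 1 and up to 1.65 without another replicate, for PN embryos against MII oocytes, and TRPM3 MSTRG.9851 was -0.011 with valid reads. Without the most abundant circRNA in the total, the members' shares were 3.62% in MII oocytes and 2.77% in PN embryos. With at least 3 counts in 1 library 46 members were detected in MII oocytes. With at least 1 count in 2 libraries 15, 7 and 5 were detected in oocytes, embryos and sperm, and with at least 1 count 23 to 27 in single sperm columns. The cause of these changes was not tested. Over all alternatives, 358 log2 fold changes of single features kept their direction and their side of the threshold, 23 changed sign, 19 no longer passed and 8 newly passed, and of the counts and shares 97 stayed close to the reported value and 48 moved further.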

Other observations

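Channel and carrier families outside the naming rule gave 11 circRNAs of 7 host genes (CFTR, CNNM2, CNNM4, MFSD6, STIM1, UNC79 and UNC80). CNNM2, a magnesium-related membrane protein, gave the one found most widely: circRNA1000 had 0, 83 and 23 counts in the MII oocytes, 58, 15 and 1 in the PN embryos and 0 in both sperm columns. CNNM2 circRNA999 was counted in the same groups, at 0, 2 and 1 in MII oocytes and 2, 17 and 0 in PN embryos. STIM1, the calcium sensor of the endoplasmic reticulum, gave circRNA1237 with 1 count in MII oocyte replicate 3 and 180 in sperm replicate 2, and circRNA2482 with 229 in the shared sperm column. Of the 11, 2, 3 and 2 could be tested between PN embryos and MII oocytes, sperm and MII oocytes, and sperm and PN embryos, and edgeR called 0 in each, with 0, 2 and 1 at an unadjusted p under 0.05, where the shares over all circRNAs were 5.93%, 55.8% and 39.5%. Among the circRNAs listed under Ensembl identifiers, the ATP11B circle circRNA1934 had 70 counts in PN embryo replicate 2, and KCNH1 circRNA332 had 4, 0 and 1 counts in MII oocytes.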
